A study of Mus musculus with 2 samples.

Results

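The Mir26 family of the mouse consists of the microRNA genes Mir26b, Mir26a-2 and Mir26a-1, each inside an intron of a Ctdsp gene. They were taken by gene name from the 2202 microRNA genes of the tables, so the family accounts for 3 of 2202 genes, all of which had 10 or more counts summed over the libraries. The genes were chosen by name with their CPM levels and their ratios between the libraries already known, so both are given as a description, with no test. MicroRNA-seq measured total RNA with inserts under the labelled size limit from the gastrocnemius, the large calf muscle, of adult male B6CASTF1/J mice aged 18 to 20 months. B6CASTF1/J animals are F1 hybrids of C57BL/6J and CAST/EiJ. There was 1 group of 2 libraries, biological replicates 2 and 1, with no treatment and no other tissue. The labels give them separate biosamples but the same donor identifier and do not say whether these came from separate animals, so the spread between them may be technical.

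A microRNA gene is transcribed as part of a longer RNA, cut to a hairpin precursor and cut again to a duplex of a 5p and a 3p arm, either of which can be loaded into a silencing complex. The loaded strand finds its target messenger RNAs mainly by its seed, the bases near its 5′ end. In cultured mouse myoblasts miR-26a is known to rise during differentiation and to repress Ezh2, a histone methyltransferase that holds muscle genes silent, and it also represses Smad1 and Smad4 of the BMP and TGF-beta pathways. The host genes Ctdsp1, Ctdsp2 and Ctdspl encode small phosphatases that remove phosphate from the C-terminal domain of RNA polymerase II and, with the repressor REST, hold neuronal genes silent in other cells. In zebrafish miR-26b represses its own host ctdsp2.

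The mature arms show what the loci share and where they differ. They are given 5′ to 3′ from RefSeq on GRCm38.p6, the assembly also called mm10, with the seed (bases 2 to 8) in capitals.
mmu-miR-26b-5p: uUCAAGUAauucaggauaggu
mmu-miR-26a-5p: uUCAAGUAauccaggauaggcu
mmu-miR-26b-3p: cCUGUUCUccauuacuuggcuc
mmu-miR-26a-2-3p: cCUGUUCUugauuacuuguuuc
mmu-miR-26a-1-3p: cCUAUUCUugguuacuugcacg
The 5p arms of the 3 genes have 1 seed, UCAAGUA, and among 1679 mature names of the RefSeq table no other microRNA carries it. Mir26a-2 and Mir26a-1 encode the same 5p arm of 22 bases. With positions counted from 1 at the 5′ end and miR-26a-5p read first, miR-26b-5p differs from it by C11U and C21U, outside the seed, and has 21 bases. The 3p arms are all different. That of Mir26a-1 differs from that of Mir26a-2 at 6 of 22 positions, and one of these, G4A (read from miR-26a-2-3p), lies in the seed. The 3p seed CUGUUCU of Mir26b and Mir26a-2 also occurs in miR-6932-3p and miR-7039-3p, whose genes Mir6932 and Mir7039 had 0 counts in both libraries.

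The precursors show where those arms lie, with both arms in capitals. All are on the plus strand, Mir26b at chr1:74394310-74394394, Mir26a-2 at chr10:126995530-126995613 and Mir26a-1 at chr9:119031796-119031885 of mm10.
Mir26b: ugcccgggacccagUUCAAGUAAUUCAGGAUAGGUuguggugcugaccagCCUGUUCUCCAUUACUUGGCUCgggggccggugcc
Mir26a-2: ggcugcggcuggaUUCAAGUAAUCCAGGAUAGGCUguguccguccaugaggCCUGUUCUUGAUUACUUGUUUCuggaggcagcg
Mir26a-1: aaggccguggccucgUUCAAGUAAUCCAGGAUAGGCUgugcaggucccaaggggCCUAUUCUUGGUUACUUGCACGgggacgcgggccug
The precursors are 85, 84 and 90 bases long in that order, with 15, 16 and 17 bases between the arms. Predicted folds had minimum free energies of -43.5, -44.5 and -49.4 kcal/mol for Mir26b, Mir26a-2 and Mir26a-1, with 18 of 21, 19 of 22 and 20 of 22 bases of the 5p arm paired.

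Mir26a-2 and Mir26a-1 share an unbroken stretch of 25 bases, uucaaguaauccaggauaggcugug, which is the whole 5p arm and the bases just after it. The longest stretch that Mir26b shares with either of them is 11 bases. Of the 20-base windows of each precursor, 6 of 65 in Mir26a-2 and 6 of 71 in Mir26a-1 occur at another microRNA locus, in each case the other Mir26a gene. None of the 66 windows of Mir26b does. Searched in all 141767 transcripts of GENCODE M21, miR-26a-5p occurs in both Mir26a genes, and each of the other 4 arms occurs in its own gene only. A read that lies wholly within the 25 shared bases has the same match at both Mir26a loci, and reads with several matches are not part of the gene counts.

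**Figure D1:**
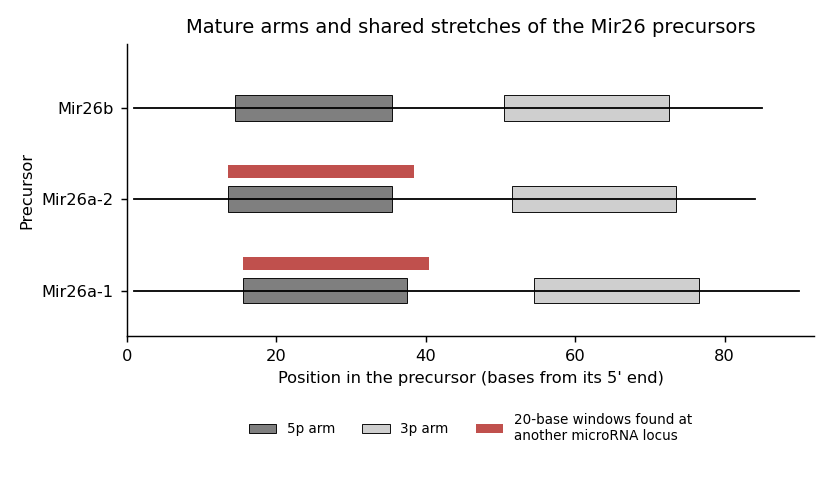
The 3 Mir26 precursors drawn to scale, with the position in bases from the 5′ end on the horizontal axis. Grey boxes mark the 5p and 3p arms, and red bars the 25 bases covered by 20-base windows that occur at another microRNA locus, which are present over the 5p arm of Mir26a-2 and Mir26a-1 and absent from Mir26b.

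The genes have matching places in their hosts. Mir26b (ENSMUSG00000065468.1) lies in intron 4 of 6 of Ctdsp1, Mir26a-2 (ENSMUSG00000065430.1) in intron 5 of 7 of Ctdsp2 and Mir26a-1 (ENSMUSG00000065513.1) in intron 5 of 7 of Ctdspl, counted in the longest coding transcript of each host. In each host 2 further introns follow. The introns have very different lengths, 564 bases in Ctdsp1, 1946 bases in Ctdsp2 and 3283 bases in Ctdspl, as have the host genes, at 5777, 21259 and 117546 bases. Mir26a-2 ends 241 bases before the next exon of that transcript. In another coding transcript and in a retained-intron transcript of Ctdsp2 an exon begins on its last base, an overlap of 1 base. No annotated gene lies on the opposite strand at any of the 3 loci, and neither library had a count on that strand.

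The counts assigned to microRNA genes summed to 2156222 in replicate 2 and to 4442692 in replicate 1. Of all reads, 19.8% in replicate 2 and 15.7% in replicate 1 were assigned, while 70.2% in replicate 2 and 73.8% in replicate 1 had several matches and were left out. Levels are counts per 1000000 assigned counts (CPM), with exact 95% Poisson intervals that cover counting error only. The limit that a count of 0 allows, 3 counts, was 1.39 CPM in replicate 2 and 0.675 CPM in replicate 1. Striated muscle markers were present, 9 of 9 with counts, at a summed 65700 CPM in replicate 2 and 16413 CPM in replicate 1, most of it Mir206. The markers did not move together: by log2 ratio of replicate 2 over replicate 1, 3 were 2-fold or more higher in replicate 2 (Mir206, Mir499 and Mir208b), 3 were 2-fold lower (Mir1a-1, Mir1a-2 and Mir133b) and 3 were in between, with a median of -0.30. The 4 loci of Mir1a and Mir133a, the best known muscle microRNAs, averaged 3.07 to 132 CPM. They and Mir133b share 20 bases or more with another locus, so reads of their mature arms may be missing. Their levels and ratios, those of all 3 lower markers included, are therefore uncertain. The markers for which no such stretch was found were Mir206 (2.47), Mir499 (2.95), Mir208b (1.73) and Mir486 (-0.22). The search left out genes that overlap the marker itself.

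Mir26b had by far the most assigned counts of the family. It had 91543 counts in replicate 2 and 125751 in replicate 1, or 42455 CPM in replicate 2 (interval 42181 to 42731) and 28305 CPM in replicate 1 (28149 to 28462). Its level was above that of both Mir26a genes in each library, and it ranked 9th in replicate 2 and 11th in replicate 1 among all microRNA genes. Over the libraries Mir26b averaged 35380 ± 10006 CPM (SD, n = 2). In the order of mean levels its neighbours were Mir206 at 36675 ± 35164 CPM and Mir99a at 33058 ± 1300 CPM (SD, n = 2 each), neither of which differed from it by more than the spread between libraries.

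Mir26a-2 had 215 counts in replicate 2 and 707 in replicate 1, or 99.7 CPM in replicate 2 (86.8 to 114) and 159 CPM in replicate 1 (148 to 171). It averaged 129 ± 42.0 CPM (SD, n = 2) and ranked 129th in replicate 2 and 118th in replicate 1. Here the level was lower in replicate 2, and the intervals of the libraries did not overlap.

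Mir26a-1 had 268 counts in replicate 2 and 48 in replicate 1, or 124 CPM in replicate 2 (110 to 140) and 10.8 CPM in replicate 1 (7.97 to 14.3). The library that was low for Mir26a-2 was thus high for Mir26a-1. Its mean was 67.5 ± 80.2 CPM (SD, n = 2), an SD above the mean, and its rank was 118th in replicate 2 and 242nd in replicate 1. By mean level the order was Mir26b, Mir26a-2 and Mir26a-1, but the Mir26a genes did not differ by more than their spread.

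**Figure D2:**
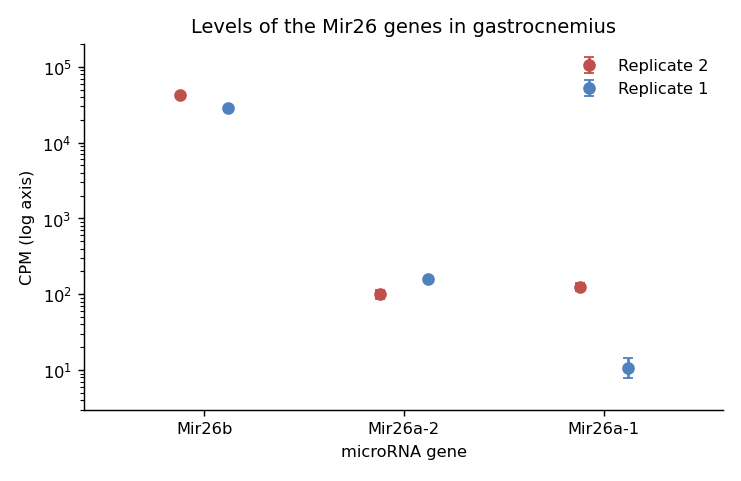
Level of each Mir26 gene in CPM on a log axis, with replicate 2 left of replicate 1 and bars for the exact 95% Poisson interval. Mir26b is at 42455 CPM in replicate 2 and 28305 CPM in replicate 1, and Mir26a-1 is at 124 CPM in replicate 2 and 10.8 CPM in replicate 1.

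Together the 3 genes took 4.27% (Wilson 95% interval 4.24 to 4.29) of assigned counts in replicate 2 and 2.85% (2.83 to 2.86) in replicate 1, a mean of 3.56% ± 1.00 (SD, n = 2). As a share of all reads, those with several matches included, this was 0.846% in replicate 2 and 0.446% in replicate 1. Mir26b alone made up 99.5% of the family's assigned counts in replicate 2 and 99.4% in replicate 1. What remained was divided between the Mir26a genes, and divided differently in each library. Mir26a-2 contributed 0.234% of family counts in replicate 2 (0.204 to 0.267) and 0.559% in replicate 1 (0.519 to 0.601). Mir26a-1 contributed 0.291% in replicate 2 (0.258 to 0.328) and 0.0379% in replicate 1 (0.0286 to 0.0503).

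Within replicate 2 Mir26b had 190 times as many counts as both Mir26a genes together (exact 95% interval 173 to 208), and within replicate 1 it had 167 times as many (155 to 179). The multiples over the single Mir26a genes differed between the libraries in opposite directions. The difference for the sum lies between theirs by construction, so no likeness of the libraries is read from it. Mir26b exceeded Mir26a-2 426-fold in replicate 2 (372 to 489) and 178-fold in replicate 1 (165 to 192). Over Mir26a-1 it was 342-fold higher in replicate 2 (303 to 387) and 2620-fold higher in replicate 1 (1976 to 3553). Division by precursor length moved the log2 ratios of Mir26b over the sum, over Mir26a-2 and over Mir26a-1 by 0.03, -0.02 and 0.08. The Mir26a counts leave out reads confined to the shared 5p stretch, and the tables do not split counts by arm, so how much of the distance between Mir26b and Mir26a follows from this was not tested.

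Replicate 2 was set against replicate 1 to see how far the members differ between libraries that carry the same labels. The log2 ratios are on the log2(CPM + 1) scale with edgeR's TMM scaling over all microRNA genes with 10 or more summed counts, and their exact 95% counting intervals leave out the added 1 CPM. The ratio of Mir26b was 0.68 (0.67 to 0.69), that of Mir26a-2 -0.58 (-0.81 to -0.36) and that of Mir26a-1 3.50 (3.17 to 4.09). Mir26b and Mir26a-1 were thus higher in replicate 2 and Mir26a-2 was lower. Each kept its sign under all 7 other settings of scaling, total, count filter, pseudocount and strand, which gave 0.53 to 0.93 for Mir26b, -0.72 to -0.32 for Mir26a-2 and 3.11 to 3.60 for Mir26a-1. No replicate check of these differences exists, since each library stands alone on its side.

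A 2-fold or larger difference was found for 1 of the 3 members, Mir26a-1 at 11.3-fold. The background of such differences was high, at 120 of 380 genes with 10 or more summed counts, or 31.6%. In the direction of Mir26a-1, higher in replicate 2, it was 12.9%. By its ratio Mir26a-1 was the 2nd highest of the 380 genes, and 3 genes had a larger difference in either direction. Mir26b and Mir26a-2 lay well inside the spread of all genes, whose log2 ratios had a median of 0.02 and an SD of 1.13. Differences larger than that of Mir26b were found for 47.4% of genes and larger than that of Mir26a-2 for 54.5%.

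**Figure D3:**
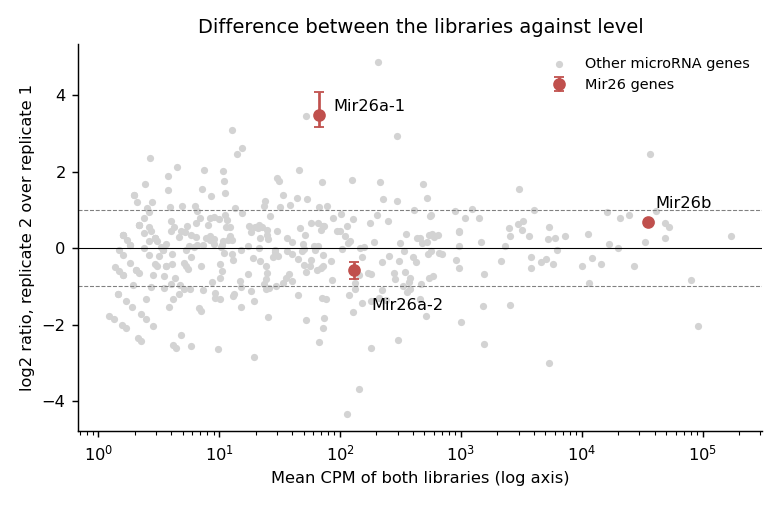
Log2 ratio of replicate 2 over replicate 1 against mean CPM (log axis) for the 380 microRNA genes with 10 or more summed counts. Mir26 genes are red with exact 95% counting intervals, dashed lines mark 2-fold, and of the 3 genes Mir26a-1 alone lies outside them, at 3.50.

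The opposite shifts of the Mir26a genes changed their order. Mir26a-1 held 1.25 times the counts of Mir26a-2 in replicate 2 (exact 95% interval 1.04 to 1.5) and 0.0679 times in replicate 1 (0.0496 to 0.0910). Mir26a-1 thus made up 55.5% of the counts of both genes in replicate 2 (Wilson 95% interval 51.0 to 59.9) and 6.36% in replicate 1 (4.83 to 8.33). The ratio between the loci was 18.3-fold higher in replicate 2 (conditional exact 95% interval 12.9 to 26.4), a value that depends on no scaling of the libraries. Summed over both loci, the assigned counts of Mir26a came to 224 CPM in replicate 2 (204 to 245) and 170 CPM in replicate 1 (158 to 183). Reads confined to the 25 shared bases, which hold the whole 5p arm, are missing from this sum and from the split between the loci. The log2 ratio of that sum was 0.49 (0.32 to 0.66). A ratio of summed counts lies between those of its 2 loci by construction, so no likeness to the 0.68 of Mir26b is read from it.

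The same split was computed for 23 other pairs of loci listed as encoding the same microRNA, of which 20 had an arm in common in the RefSeq table. The Mir1a and Mir133a pairs were not in that table, and the Mirlet7a loci had no arm in common there. All 46 genes of the pairs share 20 bases or more with another locus. Reads confined to such stretches are left out, so the splits describe the remaining counts only. In 16 pairs both loci had 10 or more summed counts. Their log2 ratios of replicate 2 over replicate 1 differed between the loci by 0.16 to 2.58, with a median of 0.59, and the difference between Mir26a-1 and Mir26a-2 was 4.07. In 3 of the 16 pairs the difference was 1 or more. Among them Mir16-1 and Mir16-2, which lie in separate clusters, differed by 2.58, and Mir24-1 and Mir24-2, of the Mir23-Mir27-Mir24 clusters, by 2.01. These 2 were also the pairs in which the locus with more counts changed between libraries, as it did for Mir26a. Mir128-1 and Mir128-2 differed by 1.69, with Mir128-1 ahead in both. None of these differences was tested.

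**Figure D4:**
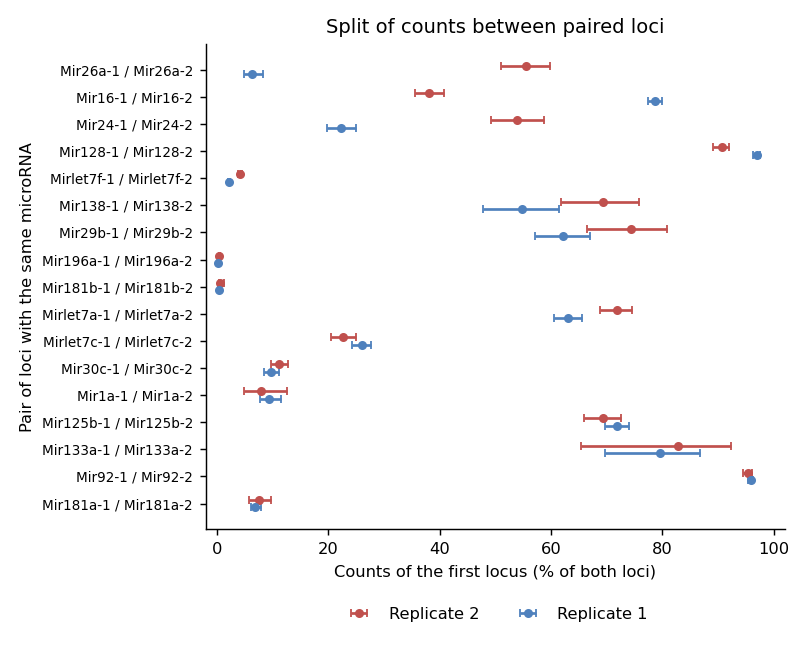
Share of the counts of both loci held by the first locus of each pair, in percent, in replicate 2 and replicate 1 with Wilson 95% intervals, for Mir26a and the 16 listed pairs with 10 or more summed counts at both loci. Mir26a-1 is at 55.5% in replicate 2 and 6.36% in replicate 1, and Mir16 and Mir24 also cross the middle of the axis.

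Over all loci, 1018 microRNA genes had at least 1 mature arm in the RefSeq table. In 61 of them, the Mir26a genes included, 1 of 2 arms occurs at another locus. The 36 of these with 10 or more summed counts had a median of 68.8 CPM, below Mir26a-2 and close to the mean of Mir26a-1. Mir26a-1 was near that median in neither library, at 124 CPM in replicate 2 and 10.8 CPM in replicate 1. Mir26b belongs to the 908 genes with no arm at another locus. The 299 of those with 10 or more counts had a median of 25.1 CPM, far below Mir26b. A 2-fold or larger difference between libraries was found for 27.8% of the 36 genes and 32.4% of the 299. In a further 49 genes every arm occurs at another locus, and the 7 of these with 10 or more counts had a median of 17.2 CPM, with 1 past 2-fold.

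Likeness to each member was measured as the distance in log2(CPM + 1) over the 2 libraries, which with 2 points describes level and ratio only. Nearest to Mir26b was Mir23b, at a distance of 0.11 and with 44840 CPM in replicate 2 and 29905 CPM in replicate 1. Mir23a (0.34) and Mir99a (0.37) came next. Nearest to Mir26a-2 was Mir142, a microRNA gene of blood cells, at 0.20, with 105 CPM in replicate 2 and 181 CPM in replicate 1, before Mir24-2 (0.23) and Mir1a-2 (0.36). Mir26a-1 had no neighbour as near. Mir770, in the imprinted Meg3 gene, was at 0.50, with 96.5 CPM in replicate 2 and 8.33 CPM in replicate 1, and Mir128-2 (1.03) and Mir137 (1.40), both known from neurons, followed.

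Other microRNA genes of related setting or role were counted from 3 lists, with Mir26 in none of them. Of 12 genes in introns of paralogous hosts, 9 had 10 or more counts, of which 5 were 2-fold or more higher in replicate 2, 0 were 2-fold lower and 4 were in between. Over all 380 genes 12.9% were 2-fold or more higher and 18.7% lower. The list's median log2 ratio was 1.73, against 0.02 over all genes. The 5 were Mir499 (2.95), Mir208a (3.10) and Mir208b (1.73) in myosin heavy chain genes, Mir128-2 (2.04) in Arpp21 and Mir107 (1.74) in Pank1. The ratio of Mir208a rests on 9 counts in replicate 1. Of 20 genes known from myogenic differentiation, all with 10 or more counts, 3 were 2-fold or more higher in replicate 2, 5 were 2-fold lower and 12 were in between, with a median of -0.44. Mir206, which promotes myoblast differentiation, was at 2.47, and Mir214 was at -1.93. Of the 46 listed genes with an identical copy, 36 had 10 or more counts, with 6 higher, 3 lower, 27 in between and a median of -0.01. A stretch of 20 bases or more shared with another locus was found in 7 of the 12 genes, 13 of the 20 and all 46. Mir128-2 and Mir107 have such a stretch, as do all myogenic genes past 2-fold except Mir206, Mir499 and Mir214. Reads confined to such stretches are left out, so these ratios, and the list counts and medians that include them, are uncertain.

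The markers of other cell types also differed between the libraries. The endothelial marker Mir126a was at 55386 CPM in replicate 2 and 104418 CPM in replicate 1, and the smooth muscle markers Mir143 and Mir145a summed to 56840 CPM in replicate 2 and 48844 CPM in replicate 1. The log2 ratios of replicate 2 over replicate 1 were -0.82 for Mir126a, 0.26 for Mir143 and 1.00 for Mir145a. The 2 erythroid markers, Mir451a and Mir144, summed to 109 CPM in replicate 2 and 777 CPM in replicate 1. The 4 leukocyte markers summed to 3632 CPM in replicate 2 and 2285 CPM in replicate 1. They did not move together, with log2 ratios of 0.80 for Mir150 and 1.02 for Mir155, against -0.69 for Mir142 and -0.23 for Mir223. The liver marker Mir122 was at 396 CPM in replicate 2 and 13.3 CPM in replicate 1. Of 6 neural markers 5 had 0 counts in both libraries, but all 6 share 20 bases or more with another locus, so reads of their mature arms may have been left out and the zeros say little about neural RNA. The part of these differences in the Mir26 ratios was not tested, and in whole tissue fewer cells of a type and less RNA per cell cannot be told apart.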

How the data were processed

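Each library came with 1 deposited table of raw read counts for microRNA genes, made on mm10 with GENCODE M21 per the readmes that accompany it. The name of an aligner, trimming step or counting program was not given in the sources used here. Judging by their values, the 3 deposited columns of counts are without strand, sense and antisense, and the sense counts were used. Rows of unassigned reads stayed out of the totals, and their main shares are given with the levels. All 2202 identifiers had an M21 annotation.

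Members and lists were chosen with earlier results of these data known. Beside the members, the text names the 3 genes nearest to each in level, the neighbours of Mir26b in rank and genes of the lists. List genes given with values were picked after these were seen. With 1 group of 2 libraries no test between conditions was possible, and edgeR served for TMM scaling only. Ratios and intervals were tested on simulated counts with set fold changes and Poisson counting error only. That test says nothing about variation between libraries. Alternatives were the counts without strand, other totals, plain totals or DESeq2 size factors, pseudocounts of 0.1 and 5 CPM in place of 1, other count filters and each library alone. The total of all reads and the scaling by precursor length were added after seeing the data. Scaling used edgeR 4.0.16 and DESeq2 1.42.0 in R 4.3.3, folds came from ViennaRNA 2.7.2, and the remaining steps and figures used scipy 1.17.1, pandas 2.3.3, numpy 2.4.6 and matplotlib 3.10.9 in Python 3.11.15.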

Additional observations from a re-analysis of the deposited data

How the results depend on the processing

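With counts without strand, whose totals are smaller, the mean level was 48940 CPM for Mir26b and 180 CPM for Mir26a-2, and the family took 4.92% of counts. With all reads of the tables as the total these values were 6425 CPM, 22.3 CPM and 0.646%. The log2 ratio of Mir26b was 0.58 with plain totals, 0.64 with DESeq2 size factors, 0.53 with no count filter, 0.66 with counts without strand and 0.93 with all reads as the total, the last of which gave -0.32 for Mir26a-2. A pseudocount of 5 CPM gave 3.11 for Mir26a-1. The number of genes with a 2-fold or larger difference, 120 of 380, was 65 of 228 with 100 or more summed counts, where fewer genes are counted. The mean log2 ratio of Mir26a-1 over Mir26a-2 within a library, -1.72, ran from -3.76 to 0.32 over single libraries, so its sign depended on the library. The other results and settings moved by less than the spread between libraries, the counting interval or, for the number of genes, 1.5 times. For mean levels this is a weak check, since either of 2 libraries alone always lies within their SD of the mean. The level of Mir26a-1 was 67.5 CPM as a mean, 124 CPM in replicate 2 alone and 10.8 CPM in replicate 1 alone. With all reads as the total it was 13.2 CPM. Since the SD of this gene exceeds its mean, no lower level could count as moved. Leaving out a library gave no ratio of replicate 2 over replicate 1. No paired analysis was possible because there is 1 group. The ratio of Mir26a-1 rests on 48 counts in replicate 1.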
